A study of Drosophila melanogaster with 3 samples.

Results

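Intron peaks close to, but not at, the start of a gene made up 794 peaks of the optimal list of this study, which holds 4414 others. That is 15.2% of the list (95% Wilson interval 14.3 to 16.2%) and 40.4% of its 1963 intron peaks. A peak belonged here when its summit lay inside a protein-coding gene, in no annotated coding or untranslated exon, and 501 to 2000 bp from the nearest start site of a protein-coding gene. No measured value of the peaks entered that choice. The study is a chromatin immunoprecipitation with sequencing (ChIP-seq) experiment on whole Drosophila melanogaster embryos, both sexes pooled, collected over 0 to 24 hours of development. A GFP antibody pulled down a protein tagged with GFP in a transgenic line, and 3 biological replicates, numbered 1, 2 and 4, form the only group, so no treatment, genotype or stage can be compared. On the protein that carries the tag the labels are at odds: the strain name, insertion target and antibody field name CG18619 or REPTOR-BP, while the free-text description and note name REPTOR with GFP at its C-terminus. A control experiment is named in the labels and was not analysed here. Because the material is whole embryos of mixed age, a peak present in few cells and a weak peak present in many cannot be told apart.

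REPTOR and REPTOR-BP are basic leucine zipper (bZIP) proteins that act together. In Drosophila they are known for turning on genes when the kinase complex TORC1, which senses amino acids and insulin, is inactive. Introns near the start of fly genes often hold enhancers, and long first introns often lie between alternative start sites of 1 gene, so a position there can be downstream of one start and upstream of another.

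The 12 strongest such peaks on arms 2L, 3L and 3R and on X that all 3 replicates shared are shown first, because they carry the largest signals and show the base composition at the summits. Each line gives 29 bases centred on the summit, on the plus strand of build dm6, read 5′ to 3′ from RefSeq. Capitals mark a match to a searched motif, here TGTTTAC or its reverse complement, the FOXO site.
ush, chr2L:481051-481079: gtttaagttttatttttcttcacattccc
CG11050, chr2L:6612697-6612725: aaattaatacaagattagattttgtattg
Trl, chr3L:14759500-14759528: ctggactattttttccattggctagtttt
Lk6, chr3R:11761019-11761047: gcatagttttacagtggcacataaactaa
CG32772, chrX:4910353-4910381: ttaaagttaagcggttataaaactaacaa
CG9663, chr2L:3302170-3302198: atgcgggcataGTAAACAcatacgacaaa
chif, chr2L:16351242-16351270: tccgtaagacaatttttctattaatatta
CG9837, chr3R:8811657-8811685: taataagcataacaatttattttacattc
gce, chrX:15298444-15298472: aactcaaatattactaaatttattacaga
CG3726, chrX:5918898-5918926: caaaatatataggttattgagcaacaaaa
for, chr2L:3655808-3655836: ttttaaaacttttgatcaacattgctgat
bmm, chr3L:14785040-14785068: tatttaatttaatattggcaattgaagat

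A further 5 windows show motifs that lay within 14 bases of a summit. The first pair holds the TATA box TATAAAAG, the motif with the highest share at summits relative to flanks. Of the 20 summit windows with this box, 5 had it this close to the summit. The next holds the FOXO site. The last pair holds sites of bZIP families, the CRE core TGACG and the AP-1 site TGACTCA. Both of these bZIP sites were rarer at summits than in flanks, with ratios of 0.588 and 0.667. The ratio of the AP-1 site rests on 7 summit windows.
bbx, chrX:21366514-21366542: atactcattatcaTATAAAAGctatataa
larp, chr3R:28327383-28327411: tggcttccTATAAAAGacatggaaaataa
dlg1, chrX:11391026-11391054: ttccgtttaaatgtggattTGTTTACccc
InR, chr3R:21590836-21590864: tacctatTGACGgcgagtaaataagttct
SNF4Agamma, chr3R:21161893-21161921: cccgaaTGACTCAttatttatcaggcgaa

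Intron sequence 501 to 2000 bp from a start held about 2 times as many peaks as its length would give. It covers 10.4 Mb, 7.74% of the 6 arms, and held 15.2% of the optimal peaks, a ratio of 1.97. In each replicate's own list, taken to the length of the optimal list from the strongest region down, 806, 741 and 813 summits (15.5%, 14.2% and 15.6%) fell there in replicates 1, 2 and 4, with ratios of 2.00, 1.84 and 2.02. The log2 ratio was therefore above 0 in 3 of 3 replicates and averaged 0.96 ± 0.07 (SD, n = 3). An exact two-sided sign-flip permutation test over the replicates gave p = 0.25, which is the smallest value that 3 replicates allow, so no test of this kind can pass 0.05 here.

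Peak density in this sequence was 76.7 per Mb, against 27.7 per Mb in introns beyond 2000 bp, 155 per Mb within 500 bp of a start (promoters) and 38.9 per Mb over the 6 arms. The replicates' own lists gave 77.8, 71.6 and 78.5 per Mb within 501 to 2000 bp, against 27.97, 24.8 and 27.5 per Mb in the more distant introns, in replicates 1, 2 and 4. That is 2.78, 2.88 and 2.86 times the density of the distant introns, so the ratio varied little between replicates. Within the window the density was highest next to the promoter: 104 per Mb at 501 to 750 bp, then 76.6, 84.1, 63.2, 59.96 and 61.8 per Mb in the following steps of 250 bp. The log2 ratio of density at 501 to 1000 bp over that in the outermost 500 bp was 0.69, 0.48 and 0.46 in replicates 1, 2 and 4, with a mean of 0.54 ± 0.13 (SD, n = 3; exact sign-flip permutation p = 0.25). Even the farthest step stayed above the density of introns beyond 2000 bp in all 3 replicates.

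**Figure D1:**
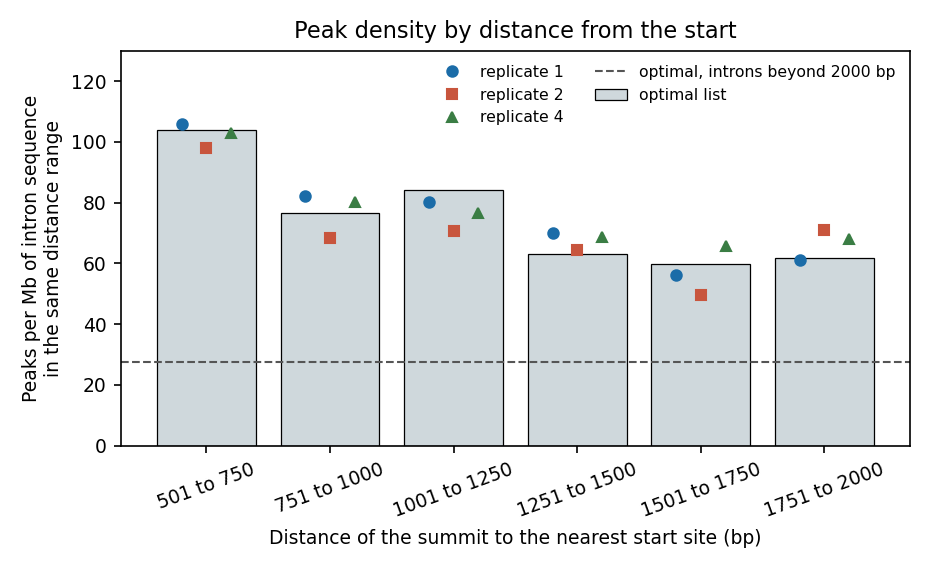
Peaks per Mb of intron sequence in steps of 250 bp from the nearest start site; bars are the optimal list, points the strongest regions of each replicate in equal number, and the dashed line the optimal peaks in introns beyond 2000 bp. The first step stands at 104 per Mb and the last at 61.8 per Mb, with all points above the dashed line at 27.7 per Mb.

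The peaks nearest the bounds are given as a description. Just inside the lower bound lay summits in l(3)neo38 at 501 bp (signal 344), InR at 502 bp (signal 149) and CG5854 at 502 bp (signal 263). Just outside it lay summits near qtc at 498 bp (signal 294), CG14434 at 495 bp (signal 815) and Cad96Ca at 495 bp (signal 178). At the upper bound, Irk1 at 2000 bp, pot at 1998 bp and Men-b at 1998 bp (signal 192, 483 and 317) stood inside, and FASN1, CG43658 and CG43783 (signal 168, 151 and 171) lay less than 20 bp outside.

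All large arms held such peaks. Per Mb of the same kind of intron sequence there were 88.5 on 3R, 84.7 on X, 75.8 on 3L, 68.6 on 2R and 67.5 on 2L. In the replicates' own lists, 3R ranged over 77.8 to 90.7 per Mb and 2L over 62.0 to 68.0 per Mb, so these arms did not overlap, while X at 74.9 to 85.6 per Mb overlapped 3R. Chromosome 4 held 0 peaks in 0.118 Mb, which allows up to 25.4 per Mb, and replicate 2 alone had 8.45 per Mb there.

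First introns held most of these peaks. Of the 794, 668 (84.1%, Wilson interval 81.4 to 86.5%) lay in the first intron of some transcript, against 60.3% of intron peaks beyond 2000 bp and 66.2% of the intron sequence 501 to 2000 bp from a start. The replicates' own regions gave 84.4%, 85.3% and 83.0%, a mean of 84.2 ± 1.14% (SD, n = 3), above the sequence share in 3 of 3 (exact sign-flip permutation p = 0.25). As density, first introns held 97.5 peaks per Mb and later introns 36.0 per Mb in the same distance range. The replicates put these at 96.7 ± 3.85 and 35.5 ± 4.16 per Mb (SD, n = 3 each), with no overlap between the 2 kinds of intron.

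Side of the start differed as well as distance. For 231 peaks (29.1%) the nearest start belonged to the gene holding the peak but lay downstream of it, so that the peak sat upstream of an internal start; this held for 15.3% of intron peaks beyond 2000 bp and for 19.1% of the sequence. The replicates gave 28.7%, 27.1% and 30.5% (mean 28.8 ± 1.69%, SD, n = 3; exact sign-flip permutation p = 0.25 against the sequence share). The commonest arrangement, downstream of the gene's own nearest start, held 504 peaks (63.5%), close to its share of the sequence at 61.7%. Nearest to the start of another gene were 59 peaks (7.43%), against 21.7% of intron peaks beyond 2000 bp and 19.3% of the sequence, with 7.40 ± 0.604% over the replicates (SD, n = 3). The density was 117 per Mb upstream of an own start, 78.9 per Mb downstream of one and 29.6 per Mb beside the start of another gene.

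Both properties combined separated the sequence further. First introns upstream of an own start held 136 peaks per Mb and those downstream of one held 95.4 per Mb. Later introns held 84.6 per Mb upstream of an own start and 24.3 per Mb downstream of one. Across replicates the later introns were at 82.8 ± 15.96 and 25.2 ± 0.779 per Mb (SD, n = 3 each), which did not overlap. In the upstream later introns the replicates' shares fell on both sides of the sequence share (exact sign-flip permutation p = 0.75).

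Repeats and noncoding genes took few of the peaks. A single peak, in Ada2b (signal 949.9), lay in an annotated transposable element, 0.126% of peaks against 2.44% of the sequence. Intron peaks beyond 2000 bp were as rarely there, at 0.0855%. Within 500 bp of a noncoding gene's start lay 13 peaks (1.64%), against 2.32% of the sequence, and 28 peaks (3.53%) lay inside a noncoding gene, against 3.03%. More than 1 protein-coding gene overlapped at 57 of the summits. The median gene holding a peak was 16611 bp long, and 17247 bp over the intron sequence in the same range; the median intron was 4848 bp, and 4038 bp over that sequence.

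**Figure D2:**
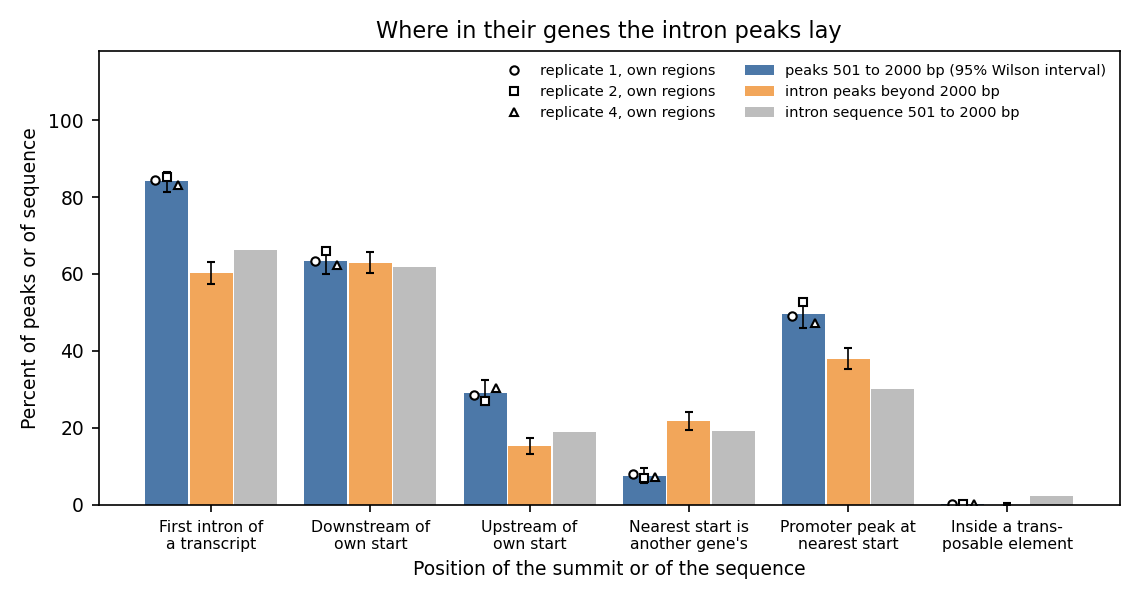
Percent of the 794 intron peaks 501 to 2000 bp from a start (blue), of the 1169 intron peaks beyond 2000 bp (orange) and of intron sequence in the same 501 to 2000 bp range (grey) by position; bars carry 95% Wilson intervals, open symbols are each replicate's own regions. First introns held 84.1%, 60.3% and 66.2%, and the start of another gene 7.43%, 21.7% and 19.3%, in that order. The promoter peak counted could lie at any start of the gene at the nearest start.

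About 1 in 2 of these peaks accompanied a promoter peak. For 393 of 794 (49.5%) the gene at the nearest start also had an optimal peak within 500 bp of one of its starts, against 38.0% of intron peaks beyond 2000 bp and 30.1% of the sequence. Within the replicates' own lists the shares were 49.1%, 52.6% and 47.4%, against 29.6%, 31.7% and 29.3% of the sequence (exact sign-flip permutation p = 0.25). Each of the 393 intron peaks was also set against the strongest promoter peak at any start of that gene. The intron peak was the stronger in 157 of them (39.9%, Wilson interval 35.2 to 44.9%), and in 40.4%, 45.6% and 39.5% within replicates 1, 2 and 4. Taking the strongest promoter peak lowers this share where a gene has several. Counting only promoter peaks within 250 bp of a start lowered the 49.5% to 32.4%. The promoter peak could lie at any start of the gene, and the share at the nearest start alone was not measured. Genes with more than 1 start held 75.8% of the intron peaks, against 65.9% of the sequence.

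Many of the 794 were not separate sites. Another optimal summit lay within 250 bp of 135 of them and within 500 bp of 160, and 143 intervals touched another optimal interval. Joining summits within 500 bp of each other left 730 sites. CG9663 shows the pattern: its summits at 3302184 and 3302389 on 2L share a single deposited interval. The smallest gap between summits at these peaks was 199 bp. Most intervals (516 of 794) were exactly 456 bp wide, and the full range was 114 to 645 bp.

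Signal, the value the authors' caller gave each region, had a median of 257 over the 794 peaks (quartiles 183 and 388, highest 3751). Intron peaks beyond 2000 bp had a median of 225 and promoter peaks one of 277. The scale differs between lists: the same median was 84.0, 79.0 and 98.2 in the replicates' own lists, against 75.7, 74.6 and 88.6 for introns beyond 2000 bp. The log2 ratio of these medians was 0.15, 0.08 and 0.15 (mean 0.13 ± 0.04, SD, n = 3; exact sign-flip permutation p = 0.25), a small difference with the same sign in 3 of 3. It was larger at the top: 74 of the 794 (9.32%, Wilson interval 7.49 to 11.5%) stood among the strongest 10% of optimal peaks, against 4.53% (3.48 to 5.88%) of intron peaks beyond 2000 bp. Against promoter peaks that lie downstream of the start of a single gene, the median signal was higher by 0.26, 0.20 and 0.09 on the log2 scale in replicates 1, 2 and 4.

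Replicates shared about 1 in 2 of these peaks. Regions in the top of all 3 replicates' lists, cut to the length of the optimal list, lay within 100 bp of 419 summits (52.8%, Wilson interval 49.3 to 56.2%), beside 53.4% of all optimal peaks, so the share was close to that of the whole list. A further 240 were matched in 2 replicates, 110 in 1 and 25 in none. Replicate 2 matched fewest, 68.8%, against 82.6% in replicate 1 and 81.2% in replicate 4, and it was the only one missing for 147 peaks, against 35 for replicate 1 and 58 for replicate 4. The whole list was also split by signal into 4 equal groups. From the strongest group down, 96.9%, 68.4%, 41.2% and 6.13% of these peaks were matched in all 3 replicates. Over all optimal peaks the shares were 95.2%, 76.0%, 37.3% and 5.15%. A fall with signal is built in, because the optimal list was made from these replicates and only their strongest regions could match. As a description only, Spearman's rank correlation of signal across peaks with a region within 100 bp in both full lists was 0.80 in 712 peaks between replicates 1 and 4. Between replicates 1 and 2 it was 0.68 in 696 peaks, and between 2 and 4 it was 0.61 in 686.

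Of the 74 in the strongest 10%, 73 were matched in all 3 replicates. The exception, in the kinase gene Raf (signal 729), lay beside another optimal summit. In replicate 1 the region within 100 bp ranked only 11866, while a summit 121 bp away ranked 187 with a signal of 348. Replicates 2 and 4 had matched regions with signals of 103 and 269 there.

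The strongest peak of all lay in ush, which encodes a cofactor of GATA transcription factors, at chr2L:480848-481339. Its signal was 3751 in the optimal list and 1242, 932 and 1549 in replicates 1, 2 and 4, ranking 2, 3 and 3. The nearest start, 1377 bp away, is that of cbt, the zinc-finger transcription factor Cabut, and the nearest start of ush itself is 4845 bp away. A peak in CG11050 at chr2L:6612468-6612932 followed with a signal of 3621, and with 1169.8, 943 and 1524 in the replicates. Its intron, at 140 bp, is shorter than the deposited interval.

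Several of the 20 strongest lay in genes known for chromatin or transcription, a grouping made after the values were seen. Trl, which encodes the GAGA factor, held the third (chr3L:14759288-14759767, 1535 bp downstream of a start) with a signal of 3002, and with 1021, 648 and 1339 in the replicates. The fourth lay where HmgD and HmgZ, genes of HMG-box chromatin proteins, overlap; its signal was 2938, and 1009.9, 643 and 1309.8 in the replicates. Further down stood Adf1, a Myb-related transcription factor gene (signal 1632), gce, a juvenile hormone receptor gene (1494), wde, a cofactor gene of a histone H3 lysine 9 methyltransferase (1348), and simj, which encodes a subunit of the NuRD complex (1256). The ranks of these last 4 within the replicates ran from 39 to 158.

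Enzymes of signalling or metabolism are known products of other genes among the 20. Lk6, the kinase that phosphorylates the translation factor eIF4E, held a peak at chr3R:11760853-11761260, 954 bp upstream of an internal start. Its signal was 2622, and 896, 603 and 1111 in the replicates. Others were for, a cyclic GMP-dependent protein kinase gene (1346), norpA, the phospholipase C gene of phototransduction (1253), and chif, which encodes the activating subunit of a replication kinase (1667). Lipid and nucleotide genes were bmm, a triglyceride lipase (1266), Baldspot, a fatty acid elongase (1245), LPCAT, a lysophospholipid acyltransferase (1244), and Prps, which makes the nucleotide precursor phosphoribosyl pyrophosphate (1251). The remaining genes were CG32772 (2526), CG9663 (2282), CG9837 (1630) and CG3726 (1385). Replicate 2 gave the lowest value at 18 of the 20; the exceptions were chif, at 526 in replicate 2 and 455 in replicate 1, and simj, at 374 and 373.

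**Figure D3:**
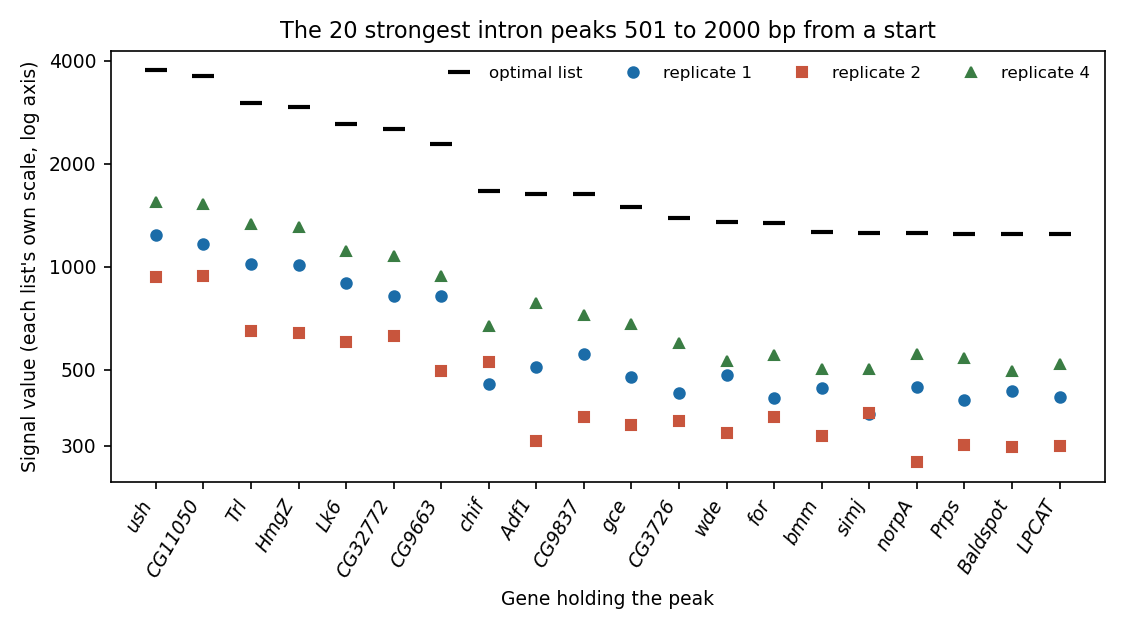
Signal, on a log axis and on each list's own scale, of the 20 strongest intron peaks 501 to 2000 bp from a start that all 3 replicates matched; black bars are the optimal list and coloured symbols replicates 1, 2 and 4. Signals in the optimal list run from 3751 at ush to 1244 at LPCAT, and replicate 4 is the highest replicate at all 20.

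Genes holding these peaks numbered 625 of the 9127 protein-coding genes with any intron sequence 501 to 2000 bp from a start, which is 6.85%. Genes with more of that sequence held a peak more often: 0.339% of genes with up to 500 bp of it did, 6.88% up to 1500 bp, 18.0% up to 3000 bp, 24.7% up to 6000 bp and 42.3% beyond. The shares of the gene lists below are therefore given with the density per Mb of the list's own sequence, to be read beside 76.7 per Mb for all genes. The lists were chosen with earlier results of these data known, and no list was tested. A listed gene counts every peak inside it, also where the nearest start is another gene's. The strongest peaks in br, kirre and Sesn, for example, lie nearest to starts of Mur2B, CG32795 and CG18128. Where a list's count of genes is more than 1.5 times lower with peaks matched in all 3 replicates, or with the stronger 50% of optimal peaks, that count is given beside it. Over all genes these restrictions left 383 and 361 of the 625, also more than 1.5 times lower. A fall of about that size is therefore not particular to a list.

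Nutrient signalling genes stood above the general density. Of 48 genes of TORC1, insulin and nutrient signalling with such sequence, 12 (25%) held 24 peaks, 196 per Mb, with 179 ± 14.1 per Mb over the replicates (SD, n = 3). The stronger 50% of optimal peaks lay in 7 of these genes. The median gene of this list has 924 bp of the sequence, against 388 bp for all genes. Besides Lk6, the insulin receptor gene InR held a peak 659 bp upstream of an internal start with a signal of 1048, and with 325, 394 and 325 in the replicates; it is the peak whose window above carries the CRE core. Weaker peaks lay in Sesn, which encodes the TORC1 inhibitor Sestrin (486), the salt-inducible kinase genes Sik3 (331) and Sik2, SNF4Agamma, a subunit gene of the energy sensor AMPK (326), Mnt, a repressor of the Myc network (298), sgg, the GSK-3 kinase (217), and S6k (158) and Lpin (158), a TORC1 target kinase and a phosphatidate phosphatase. S6k and Lpin were matched in 1 replicate each. CrebB and REPTOR are also among the 12 and are counted again in the bZIP list below, so the lists are not separate. The listed symbol Tor had no match and was not analysed here. SNF4Agamma held 5 peaks in 22083 bp of the sequence.

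REPTOR itself held 2 peaks, 210 bp apart and 1722 and 1932 bp upstream of an internal start. Their signals were 201.4 and 159, and they were matched in 2 and 1 replicates. In replicates 1 and 4 the stronger had signals of 58.7 and 67.4, near the bottom of the regions used, and replicate 2 had no region within 100 bp. It was replicate 2 that matched the weaker summit, with a signal of 69.2, so each replicate matched 1 of the 2. The stronger summit also lay inside a noncoding gene, with the nearest start of a noncoding gene 447 bp away. REPTOR-BP held no peak of this kind.

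The bZIP genes had the largest share of any list, 7 of 15 (46.7%, Wilson interval 24.8 to 69.9%), over a median of 2748 bp of the sequence per gene; either restriction left 3. The list's density was 188 per Mb in the optimal list but 119 ± 17.1 per Mb in the replicates' own lists (SD, n = 3). Most of its peaks were weak: kay, the fly Fos (423), CrebB, the CREB homologue (366), and cnc, the fly Nrf2 (266), were matched in all 3 replicates, while REPTOR, the clock genes Pdp1 (202) and vri (151), and Pif1A (158) were not. Chromatin genes of the Polycomb and trithorax list had 7 of 57 (12.3%) with 15 peaks, 250.8 per Mb and 295 ± 51.1 per Mb over the replicates (SD, n = 3). Besides Trl, HmgD and HmgZ these were the corepressor gene Sin3A (653), the Polycomb gene ph-p (536), kis, a chromatin remodeller gene (388), and psq (355).

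Signalling genes of the TGF-beta, Wnt, EGF and JAK-STAT list had 14 of 57 (24.6%), 133 per Mb, of which 6 had a peak matched in all 3 replicates and 7 one of the stronger 50%, led by shn, which encodes a zinc-finger effector of the BMP signal (765), Raf and Stat92E (550). Cytoskeleton and adhesion genes had 10 of 45 (22.2%), 145 per Mb, 6 of them with a peak matched in all 3 replicates, led by the dynein heavy chain gene Dhc64C (874), Moe, which encodes moesin (637), and jar, which encodes myosin VI (632). RNA-binding genes had 10 of 46 (21.7%) at 76.3 per Mb, the general density, led by mub (915), the translational repressor gene brat (887) and shep (489). Stress genes had 3 of 25 (12%) with only 5 peaks, 171 per Mb, and 148 ± 39.4 per Mb over the replicates (SD, n = 3). Among them were Hsp83, the fly Hsp90 (646), and stv (294), a co-chaperone gene. Cell cycle genes had 3 of 33 (9.09%), also with 5 peaks, 154 per Mb, and 144 ± 35.5 per Mb over the replicates (SD, n = 3). They were CycE (617), trbl (602) and CycG (177).

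Several developmental lists lay near or below the general density. Muscle genes had 7 of 34 (20.6%) at 56.6 per Mb, of which either restriction left 3, with Msp300 (919), kirre (572) and rols (281) the strongest. Ecdysone response genes had 5 of 24 (20.8%) at 59.4 per Mb, of which 2 had a peak matched in all 3 replicates and 3 one of the stronger 50%, with br (439), Hr4 (366) and Hr3 (275). Clock genes had 4 of 18 (22.2%) at 82.9 per Mb, of which 2 had a peak matched in all 3 replicates and 1 one of the stronger 50%, with the kinase gene dco (317) first. Neuronal genes had 5 of 40 (12.5%) at 32.8 per Mb and 30.6 ± 3.78 over the replicates (SD, n = 3), below the general density in each replicate. Among them only elav, the pan-neuronal RNA-binding protein gene (511), and Syn (197) were matched in all 3 replicates, and only elav was in the stronger 50%.

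Remaining lists held few peaks. Segmentation genes had 3 of 42 (7.14%) at 83.0 per Mb, namely ush, shn and tsl (245). Hippo genes had 3 of 26 (11.5%) at 77.1 per Mb, with crb (370), Ack (361) and dco. Notch genes had 2 of 18 (11.1%) at 58.6 per Mb, neur (460) and numb (173), of which only neur was in the stronger 50%, and Hox genes 1 of 13 (7.69%) at 66.5 per Mb, Abd-B (681). Autophagy genes had 1 of 32 (3.13%) at 79.3 per Mb, the kinase gene Atg1 (442). Translation genes had 2 of 63 (3.17%) at 76.8 per Mb, Lk6 again and pAbp (314), the poly(A)-binding protein. Proteasome and oxidative phosphorylation genes had 0 of 38, which allows up to 7.89%; their median gene has 113.5 bp of the sequence, and replicate 2 alone placed a region there.

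Some genes collected several peaks. Of the 625 genes, 466 held 1 peak, 117 held 2, 25 held 3 and 17 held 4 or more. CG1677, a gene of 124709 bp with smaller genes inside it, held 7 peaks, of which 5 lay in it alone, each nearest to the start of another gene such as brk, unc-119 or CBP. Its signals ran from 226 to 1204, and 6 of the 7 were matched in all 3 replicates. Tlk, the Tousled-like kinase gene with 8 start sites, held 6 with signals of 167 to 536, 4 of them matched in all 3. NFAT, the gene of the fly NFAT transcription factor, held 5, of which 4 lay upstream of an internal start; its strongest had a signal of 1205, and 439, 345 and 428 in replicates 1, 2 and 4. Trl held 4, with signals of 267, 268, 733 and 3002.

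Summits of these peaks were poor in G and C. A window reaching 50 bp to each side of the summit held 33.8% G and C on average, against 42.4% in windows 500 bp to either side and 39.1% over the intron sequence 501 to 2000 bp from a start. The paired difference was -8.56 ± 0.398 percentage points (SE over 794 windows), and 616 of 794 summits were below their flanks. In the replicates' own regions it was -8.23, -5.97 and -9.02 points (mean -7.74 ± 1.58, SD, n = 3; exact sign-flip permutation p = 0.25), smallest in replicate 2. The difference was larger for stronger peaks, at -10.2, -9.04, -7.57 and -7.41 points in 4 equal groups from strongest to weakest. Intron peaks beyond 2000 bp had nearly the same difference, -8.16 points, and the difference between the 2 kinds of intron peak was -0.61, 0.21 and -0.90 points in replicates 1, 2 and 4, with both signs. The whole optimal list had -8.78 points, so the difference was no smaller there, and the 257 promoter peaks downstream of a single gene's start had -0.957 points.

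**Figure D4:**
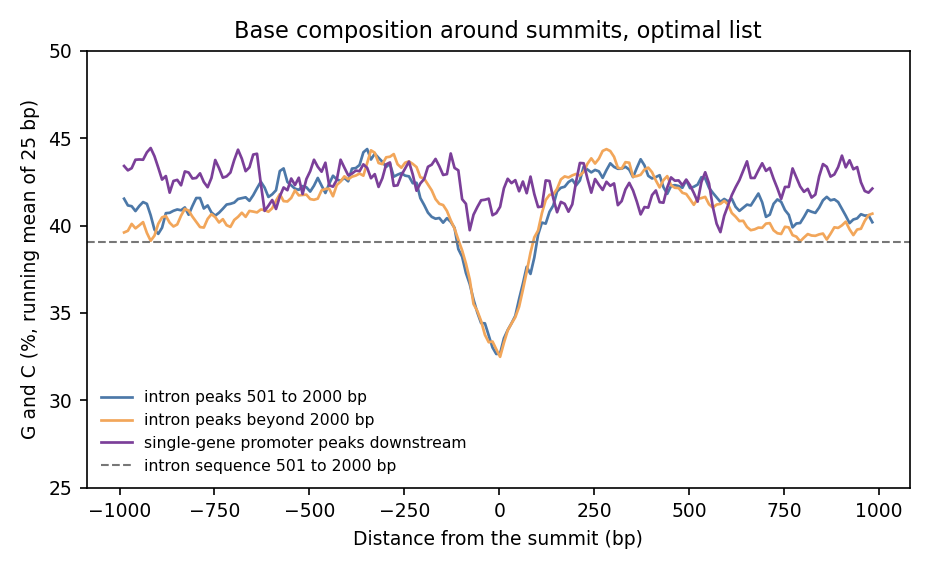
Percent G and C (running mean of 25 bp) against distance from the summit, in bp, for optimal intron peaks 501 to 2000 bp from a start, intron peaks beyond 2000 bp and single-gene promoter peaks downstream of the start; the dashed line is the intron sequence 501 to 2000 bp from a start, at 39.1%. Both intron curves dip at the summit and lie close together, while the curve of downstream single-gene promoter peaks has no such dip.

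The printed windows show this composition: AT-rich runs fill most of the 12 strongest, in which G and C take from 17.2% of the bases, as in CG11050, CG9837, gce and bmm, to 41.4% in CG9663. Hexamers showed the same composition. Among 462 hexamers found in at least 50 windows, counted on both strands, those with the highest ratio of summit to flank windows were TAGTAA (2.76), ATATTA (2.72), AGTATA (2.59), CTTATA (2.59) and ATCATA (2.57). Their order is that of the optimal list: the replicates averaged 2.28 ± 0.35, 2.58 ± 0.16, 1.85 ± 0.34, 2.46 ± 0.39 and 2.68 ± 0.11 in the same sequence (SD, n = 3 each). Those with the lowest were GCTGCC (0.299), GGCCAA (0.320), GCCAGC (0.333), GCAGCA (0.342) and AGAGCG (0.359), with replicate means of 0.369, 0.424, 0.385, 0.415 and 0.487. ATATTA lay in 147 summit windows (18.5%), against 6.80% of flank windows and 11.4% of all such windows over the intron sequence.

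Motifs of 16 kinds were searched as exact letters on both strands in the same windows. Since base composition moves with the position, the ratio of the same letters in all other orders is given beside the main motifs. The TATA box TATAAAAG had the highest ratio among motifs in 10 or more windows: 20 summits (2.52%, Wilson interval 1.64 to 3.86%), against 0.441% of flank windows, a ratio of 5.71, and 0.843% of all windows of the intron sequence. The replicates gave 4.50, 4.00 and 5.33 (mean 4.61 ± 0.674, SD, n = 3). Intron peaks beyond 2000 bp gave 1.64, the whole optimal list 2.08, and the letters in other orders 1.86. The flank share of the box rests on few windows. Of the 20, 11 boxes were on the strand of the gene holding the peak and 9 on the opposite one. The centre of the box lay within 14 bp of the summit in 5, and the others were spread over the rest of the window. In a first intron lay 17, and 9 of the peaks were matched in all 3 replicates. Over all 794 peaks, 84.1% lay in a first intron and 52.8% were matched in all 3. The strongest were in HmgZ (2938), Baldspot (1245), CG9663 at its weaker summit (863), bbx (692) and ph-p (536).

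The FOXO site TGTTTAC, bound by the forkhead factor that insulin signalling restrains, lay in 41 summit windows (5.16%), against 2.58% of flank windows, a ratio of 2.00, and 2.67% of all windows of the intron sequence. Replicates gave 2.24, 2.90 and 1.75 (mean 2.30 ± 0.579, SD, n = 3), intron peaks beyond 2000 bp 2.41, and the letters in other orders 1.18. It occurred at Trl, CG9663, Prps, Csk (869.6), which encodes a kinase that restrains Src, and SCaMC (614). Of these 41 peaks 24 were matched in all 3 replicates, beside 52.8% of all 794.

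Sites of the bZIP families differed among themselves. The CRE core TGACG lay in 50 windows (6.30%), against 10.7% of flank windows and 7.84% of all windows, a ratio of 0.588, with 0.568, 0.805 and 0.604 in the replicates and 0.802 for other orders of the letters. The full CRE TGACGTCA, which contains the core, and the C/EBP site TTGCGCAA each lay in 0 of 794 windows, which allows up to 0.378% of them; their shares of all windows were 0.205% and 0.186%. The AP-1 site TGACTCA lay in 7 windows (0.882%), against 1.32% of flanks and 1.25% of all windows, a ratio of 0.667, with 1.02 for other orders. The composite ATF4-C/EBP site TGATGCAA lay in 3 (0.378%), against 0.315% of flanks and 0.344% of all windows, a ratio of 1.20 on few windows, with 1.17 for other orders. A match, or its lack, in these windows says nothing of the tagged protein's contact with DNA.

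Repeats and other sites varied. The GAGA repeat GAGAGAG lay in 11 windows (1.39%), against 5.29% of flanks and 1.67% of all windows, a ratio of 0.262, with 0.350, 0.595 and 0.196 in replicates 1, 2 and 4 and 0.487 for other orders. The CA repeat CACACACA had 14 (1.76%), against 5.42% of flanks and 2.49% of all windows, a ratio of 0.326, with 0.593 for other orders. An A tract of 8 (AAAAAAAA) had 77 (9.70%), against 7.05% of flanks and 6.82% of all windows, but the replicates' ratios of 1.62, 0.780 and 1.09 fell on both sides of 1. The Pho core GCCATT had 38 (4.79%), against 6.30% of flanks and 7.17% of all windows, a ratio of 0.760, with 0.856 for other orders. The E-box CACGTG had 8 (1.01%), at the flank share of 1.01% and beside 1.14% of all windows, with 0.603 for other orders. The promoter motifs DRE (TATCGATA, 1 window, 0.210% of all windows) and Motif 1 (GGTCACAC, 0 windows, 0.132%) and the embryonic sites of Zelda (CAGGTAG, 0 windows, 0.497%) and Grainyhead (AACCGGTT, 1 window, 0.190%) were at or near 0.

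**Figure D5:**
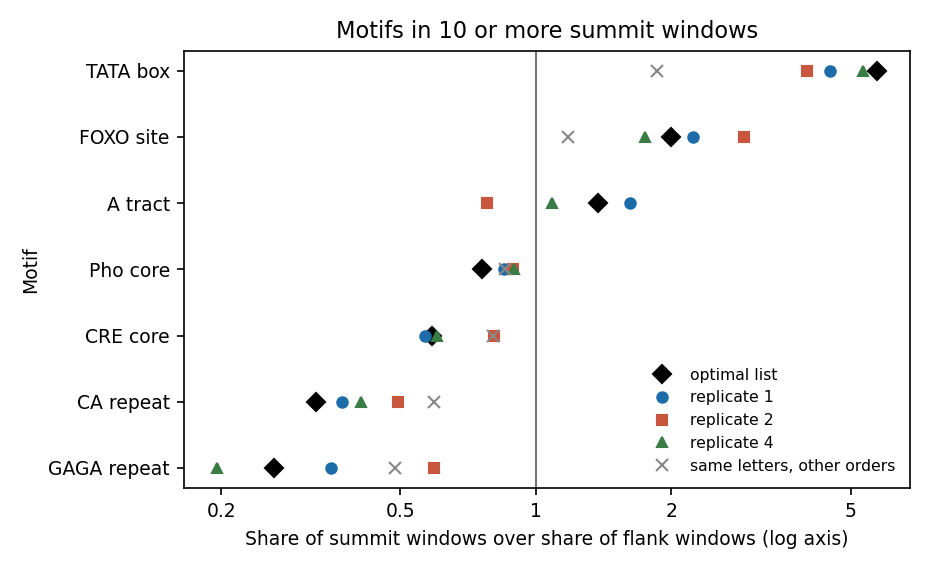
Share of summit windows over share of flank windows holding each motif, on a log axis, for motifs in 10 or more summit windows of intron peaks 501 to 2000 bp from a start; diamonds are the optimal list, coloured symbols replicates 1, 2 and 4, and crosses the same letters in all other orders (none exist for the A tract). The TATA box stands highest at 5.71 and the GAGA repeat lowest at 0.262, and the A tract replicates lie on both sides of the line at 1.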

How the data were processed

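The authors deposited region lists for 3 replicate libraries (30000 regions each, peaks and background together) and an optimal list of 5208 peaks. The chromatin was sheared to 200 to 800 bp, per the labels. Values are the authors' signal per region, on each list's own scale. The sources used here do not give the caller, the aligner or the reproducibility threshold. Without read counts the depth behind each value is unknown. Intervals reflect only the number of peaks or genes counted. The labels give each replicate a biosample of its own from the same line.

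The dm6 lists were read at summits. Replicate lists were cut to their 5208 strongest regions, and summits within 100 bp were matched. Genes came from Ensembl release 115 (13945 protein-coding genes, 19252 start sites on 6 arms) and sequence from the RefSeq copy of the same assembly. The 3 replicates were 1 group; values per replicate were tested with exact sign-flip permutations, and the scripts were tested on simulated data. Wilson intervals are at 95%, and 0 is read as allowing up to 3 counts. A gene held a peak when the summit lay within it. Of 835 listed symbols in 19 gene lists, 12 had no match and were not analysed here.

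Named in the text are the 20 strongest peaks that every replicate matched, peaks in REPTOR and REPTOR-BP, up to 3 genes per list, genes with several peaks, and the 3 peaks nearest each bound on either side. Further genes of the nutrient, bZIP, chromatin and neuronal lists, Ada2b, and the examples beside the motifs were named after their values were seen. The members, lists and tests were chosen with earlier results of these data known. Alternatives were other list lengths, match distances, windows, flanks and distance bounds, 1 start per gene, shared or stronger peaks only, and leaving out each replicate; the comparison with the optimal list's own value, with the same letters in other orders, and the means without each replicate for first introns and promoter peaks were added after seeing the data. The work used Python 3.11.15, with pandas 2.3.3 for tables, numpy 2.4.6 and scipy 1.17.1 for statistics and matplotlib 3.10.9 for plots.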

Additional observations from a re-analysis of the deposited data

How the results depend on the processing

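Whole-embryo material without a control list and with unknown depth limits every value. The share of peaks over the share of sequence, the signal difference from introns beyond 2000 bp, the G and C difference and the density ratio by distance kept their direction under every alternative run for them; their exact p cannot pass 0.05. Their ranges with 1 replicate left out were 0.94 to 1.01, 0.12 to 0.15, -8.63 to -7.10 and 0.47 to 0.59, in that order, and over the other settings 0.79 to 1.16, 0.06 to 0.19, -8.88 to -5.33 and 0.35 to 0.76.

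Sharing depended on how it was counted. Matches in all 3 replicates covered 37.7% of the peaks within 50 bp, 60.8% within 200 bp, 29.5% with replicate lists cut to 0.5 times their length and 83.5% with all 30000. Without 1 replicate, matches in both others covered 57.2% to 71.3%. First introns held 81.9% when the lower bound was moved in to 250 bp, and 83.7% to 84.8% as a replicate mean with 1 left out. A promoter peak at any start of the gene at the nearest start accompanied 53.1% with the lower bound at 1000 bp and 63.0% with it at 250 bp. That share was 32.4% when promoters reached 250 bp, and 48.2% to 50.9% as such a mean. Fewer replicates, longer lists and a wider match raise the share of matched peaks by construction, and a shorter promoter lowers that of accompanying promoter peaks; the cause of the moves with the distance bounds was not tested.

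The A tract ratio was 0.93 without replicate 1 and 1.35 without replicate 2. The 63 motif settings were each set against the ratio of the optimal list. Of them, 1 changed direction, that of the A tract, 30 moved by more than the SD of the replicates and 32 by less. Settings without 1 replicate are means over the other replicates' own lists. Their moves therefore include the difference between those lists and the optimal list. The TATA box ratio ranged from 3 with windows of 51 bp to 9 with peaks matched in all 3 replicates, and the FOXO ratio from 1.39 with the widest windows to 3.43 with those peaks. The TATA box ratio of 9 rests on 9 summit windows and fewer flank windows. Of 38 gene list settings, restricted to peaks matched in all 3 replicates or to the stronger 50% of optimal peaks, 23 stayed within 1.5 times the count and 15 were lower by more; over all genes the first restriction left 383 with a peak (4.196%) and the second 361 (3.96%).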
